A study of Mus musculus with 25 samples.

Results

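The genes described here encode the growth factors that bind the epidermal growth factor (EGF) receptor, the receptor and its relatives, and an inhibitor of the receptor. The 9 genes were the ligands Ereg, Areg, Hbegf, Btc and Tgfa, the receptors Egfr, Erbb2 and Erbb3, and the inhibitor Errfi1. They were picked by symbol from the platform's probe annotation, with their levels in the treated and control cultures already known, so the differences between treatments are a description below: the counts of these genes called in a fit over all probe sets are printed beside the share called, and they are no independent test of the genes. Probe sets naming 8 of the 9 genes were found, of 18194 genes named on the array; Areg was not analysed here. The 8 genes had 20 probe sets, and 18 of them, at least 1 for each of the 8 genes, passed the filter on low values.

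Ligands of the EGF family are made as anchored precursors at the cell surface and are cut free by metalloproteases of the ADAM family. A released ligand pairs receptors, and the paired kinases start signalling through Ras and the kinase ERK, which switches on early transcription factors and also the inhibitors that later damp the pathway. In preadipocyte cultures, EGF and TGF-alpha are known to hold back differentiation into fat cells.

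RNA came from cultured 3T3-L1 adipocytes, a mouse fibroblast-derived line that is differentiated into fat cells in the dish. Cultures received LA, the control, or CLA, the treatment, and were sampled at 4, 8, 12 or 24 h. Of the 25 one-colour Affymetrix arrays, the 4 h groups held 3 LA and 2 CLA cultures, those of 8 h and of 24 h 3 of each, and those of 12 h 4 of each; the labels call all of them biological replicates. The labels do not spell out LA and CLA, but linoleic acid is the usual meaning of LA in adipocyte work, and its conjugated form that of CLA; the sources used here name neither dose nor isomer, every culture is of the 1 cell line, and no group without added LA or CLA was analysed.

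Deposited intensities had a mean of 72.6 to 149.2 per array, and 21.6% of all values lay at or below 0. After quantile normalisation, 95% of the values below 0 were smaller in size than 18.1, and this value is used as a noise limit: a level under it cannot be told from background. Grouped by their overall profiles with no use of the labels, the arrays formed 5 sets, called A to E here, of 3, 8, 5, 5 and 4 arrays. Set C, which holds LA 4 h replicate 3, CLA 4 h replicate 1, LA 8 h replicate 3 and replicate 4 of LA and CLA 12 h, was dim, with a 75th percentile of 26.5 to 37.5 before normalisation. LA 4 h replicate 1, which falls in set A, was as dim at 29.7, and the remaining 19 arrays had 54.5 or more. The 3′ to 5′ actin ratio, a sign of RNA quality, ran from 1.43 to 3.32 in 23 arrays and was higher in LA 4 h replicate 1, at 8.11, and LA 12 h replicate 1, at 5.67. Differences were computed with limma on log2(normalised intensity + 16), once on the group means alone and once with the array sets as an added term. The sets were found in these data and are not recorded as such in the labels, but they largely followed the labelled replicate numbers. Set B held the 8 arrays of replicate 2, set D held replicate 3 only, and sets A and E held replicate 1 only. Set C held replicates 1, 3 and 4. Because the sets were drawn from the same values that the fit then models, its standard errors and p-values may be too small. Calls from that fit are therefore descriptions. The added offset of 16 compresses the differences of dim probe sets.

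All 8 adipocyte markers with a probe set, among them Adipoq (adiponectin) and Fabp4 (a fatty acid carrier), were above the noise limit in all 25 arrays. Their summed level ran from 24910 to 33224 in the LA arrays and from 16228 to 25988 in the CLA arrays at 24 h, and at 8 h from 27464 to 35228 and from 20752 to 33348. The median sum was lower under CLA at all 4 times, by the widest margin at 24 h (30504 in LA and 24996 in CLA), and the ranges of the treatments overlapped at each. With the array sets as a term, 0, 2, 4 and 5 of the 8 fell under CLA at 4, 8, 12 and 24 h, and 0 fell at any time on the group means alone. All 8 fibroblast and preadipocyte markers were also above the noise limit in 25 of 25 arrays, and 0 passed in either fit. Their median sums from 4 to 24 h were 14949, 14567, 19780 and 21436 in LA, against 15375, 21861, 22553 and 27409 in CLA, higher under CLA each time with overlapping ranges. Of the 6 epithelial markers, Epcam alone was above the noise limit in most arrays, and Cdh1 (E-cadherin) and Krt14 were under it in all 25. None of 4 endothelial markers was above it in most arrays. Of the 7 leukocyte markers, 5 were above it in some or all arrays, 3 of them in most, while Ptprc and Itgam were under it throughout. Cd14, another of the 7 leukocyte markers, rose with the array sets as a term, by 1.89 ± 0.29 at 8 h (log2, SE, n = 3 and 3; limma adjusted p = 0.00226), 1.08 ± 0.24 at 12 h and 1.08 ± 0.28 at 24 h. The summed leukocyte markers ran from 131.7 to 189 in LA and from 220.3 to 319.4 in CLA at 24 h, without overlap, and overlapped at 4, 8 and 12 h. How far these markers account for the levels described next was not tested, and in such bulk RNA fewer cells of a type and less RNA per cell cannot be told apart.

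Ereg encodes epiregulin, a ligand of the EGF receptor and of ERBB4. After normalisation its level was higher in every CLA array than in every LA array of the same time. At 4 h the LA cultures had normalised intensities of 17.9, 16.5 and 23.1, and the CLA cultures 31.9 and 75.9. At 8 h the LA values were 20.8, 13.2 and 34.1, against 246, 813 and 410.2 under CLA. The lowest CLA culture at that time was thus several times above the highest LA culture. At 12 h the LA values were 47.3, 8.79, 11.1 and 11.7, and the CLA values 184, 964, 352 and 141. At 24 h they were 18.5, 12.7 and 19.9 in LA, and 188, 182 and 48.4 in CLA. Of the LA arrays 6 of 13 were above the noise limit, with 47.3 and 34.1 as the highest, whereas 12 of 12 CLA arrays exceeded it. These counts hold after normalisation, which scales the dim arrays up. Before it, CLA 4 h replicate 1 had 15.3, under that array's own noise limit of 17.3 and under the 19.5 of LA 4 h replicate 2. LA 4 h replicate 3 and LA 8 h replicate 3 had 14.8 and 15.9, under their own limits of 24.9 and 18.5.

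The mean Ereg level under CLA went from 53.9 ± 31.1 at 4 h (SD, n = 2) to 490 ± 292 at 8 h (n = 3), 410.5 ± 380.3 at 12 h (n = 4) and 139.6 ± 79.0 at 24 h (n = 3). The spread among CLA cultures at 12 h, from 141 to 964, covered the whole 8 h range, so the means at 8 and 12 h did not differ beyond it. On the log2 scale the CLA cultures exceeded the LA cultures by 0.92 ± 0.62 at 4 h (SE), 3.58 ± 0.56 at 8 h, 3.31 ± 0.48 at 12 h and 2.07 ± 0.56 at 24 h. Once the array sets were a term, these differences were 0.78 ± 0.61, 3.55 ± 0.55, 3.31 ± 0.46 and 2.07 ± 0.53. At 4 h the difference was thus the smallest of the 4 and the least precise.

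**Figure D1:**
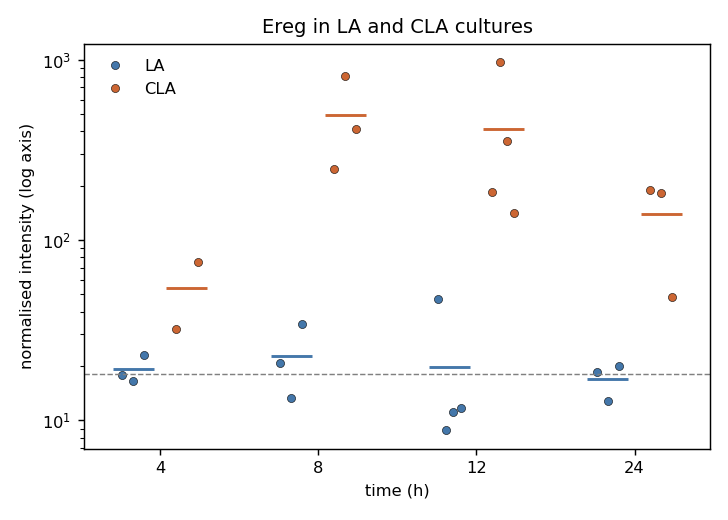
Normalised Ereg intensity (log axis) against time in hours for each LA (blue) and CLA (orange) culture, with bars at the group means and a dashed line at the noise limit of 18.1. At each of the 4 times all CLA points lie above all LA points, and the CLA points at 12 h span 141 to 964.

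The size of the Ereg difference varied between pairs of arrays from the same set. Each set that held both treatments at a time held 1 LA and 1 CLA array. A part of the set in the difference therefore cannot be told from the spread between single arrays. At 8 h the difference was 2.83 in set A and 4.82 in set B, and at 12 h it was 5.31 in set B, 3.76 in set D, 2.51 in the dim set C and 1.66 in set E, whose LA array was the one of 47.3 with the high actin ratio. At 24 h it was 2.79 in set B, 2.57 in set E and 0.84 in set D. Ereg was therefore higher under CLA in 11 of 11 such pairs, the smallest being the 4 h pair of set C at 0.29, beside 1.5 in set B. Without the 5 dim arrays of set C the differences on the group means were 1.53, 3.83, 3.62 and 2.12 from 4 to 24 h, and 1.58, 3.85, 3.64 and 2.14 without LA 4 h replicate 1 as well, which leaves 1 array of each treatment at 4 h.

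At an adjusted p under 0.05 over all 32488 probe sets tested, Ereg was the only 1 of the 8 genes called on the group means, at 8 h and at 12 h, where 0.0246% and 0.0154% of probe sets were called. At 4 and 24 h 0 of the 8 genes and 0% of probe sets were called, while 1357 and 896 probe sets had an unadjusted p under 0.05. In the fit with the array sets, the genes called were 0 of 8 at 4 h, Ereg at 8 h, Ereg and Hbegf at 12 h and Ereg at 24 h, where 0.0185%, 1.16%, 3.0% and 2.79% of probe sets were called in either direction. Each of these calls was of a higher level under CLA. Because the genes were chosen with these differences known, nothing is read from the counts. The 8 h call on the group means was lost when any of LA replicates 1 to 3 or CLA replicates 2 or 3 of that time was left out, and the 12 h call without LA replicate 2 or 3, while the 8 h difference stayed between 3.14 and 3.96.

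**Figure D2:**
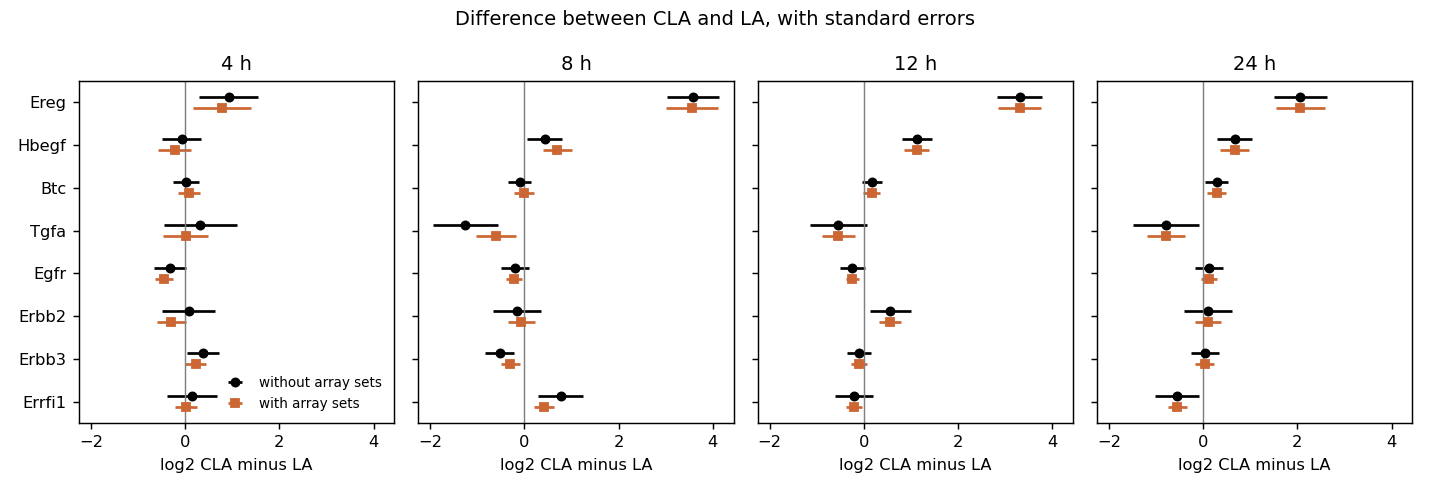
Difference between CLA and LA in log2 units for the main probe set of each of the 8 genes at 4, 8, 12 and 24 h, with standard errors, on the group means (black circles) and with the array sets as a term (orange squares). Ereg stands at 3.58 and 3.31 at 8 and 12 h, and Hbegf at 1.12 at 12 h; the other 6 genes lie between -1.25 and 0.77.

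In the authors' deposited table, which combines the arrays of a group, the ratio for Ereg was 2.93 at 4 h, 16.5 at 8 h, 10.3 at 12 h and 4.82 at 24 h. Its direction is not stated and was taken from the values, as higher under CLA above 1: the log of the ratio correlated with the CLA minus LA difference over all tested probe sets at r = 0.72 to 0.83. The order of the 4 times was the same in that table as in the normalised values.

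Hbegf encodes the heparin-binding EGF-like growth factor, and its main probe set, 1418350_at, stayed low. At 12 h the LA cultures had 11.4, 6.07, 3.11 and 15.9, all under the noise limit, and the CLA cultures 27.1, 61.4, 21.0 and 50.8, all above it. The groups did not overlap, and the level under CLA was at least 2.02-fold higher, counting the LA cultures at the noise limit. At 24 h LA cultures had 8.70, 8.23 and 2.80, and CLA cultures 20.0, 25.4 and 14.2. These groups did not overlap either, but the smallest ratio the noise limit allows was 1.07-fold. At 8 h the LA values of 7.96, -6.01 and 30.5 lay among the CLA values of 5.62, 41.1 and 19.2. At 4 h the LA values of 17.4, 7.20 and 15.0 and the CLA values of 15.6 and 7.72 were all at the noise limit or under it.

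On the log2 scale Hbegf differed by -0.08 ± 0.41, 0.43 ± 0.37, 1.12 ± 0.32 and 0.67 ± 0.37 at 4, 8, 12 and 24 h (SE). Within the sets the 12 h difference was 1.81 in set B, 1.06 in C, 0.95 in D and 0.65 in E, and thus above 0 in 4 of 4. The other Hbegf probe set, 1418349_at, had LA values of 2.88, 1.89 and 0.55 and CLA values of 14.8, 21.5 and 21.4 at 8 h, without overlap. At 12 h its groups overlapped, because CLA replicate 3 had 2.28 while the other CLA arrays had 18.4, 37.7 and 43.9. The probe sets therefore did not place the Hbegf difference at the same times. The authors' deposited table gave ratios of 1.03, 5.08, 3.14 and 2.34 from 4 to 24 h for the main probe set. In the fit with the array sets, the 12 h call of Hbegf was lost when any of LA or CLA replicates 2 to 4 of that time was left out, and also without the 5 dim arrays.

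Btc encodes betacellulin, a ligand of the EGF receptor and ERBB4. Its main probe set ran from 0.0062 to 18.4 over the 25 arrays and passed the noise limit in 2 of them, LA 4 h replicate 1 and CLA 12 h replicate 2, and its other probe set passed it in 0. Differences of the main probe set were -0.10 to 0.29, so no change in Btc was detectable at these levels.

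Tgfa encodes transforming growth factor alpha, another ligand of the EGF receptor. Its main probe set, 1450421_at, had 40.7, 111 and 113 in LA and 198 and 53.3 in CLA at 4 h, and 46.6, 127 and 144 against 46.7, 43.3 and 12.6 at 8 h. At 12 h the LA values were 5.87, 165, 19.1 and 141 and the CLA values 15.9, 30.1, 10.5 and 109. At 24 h they were 15.7, 55.8 and 18.3 in LA and 6.40, 7.58 and 13.1 in CLA. Groups overlapped at 4, 8 and 12 h, whereas at 24 h every CLA culture was under the noise limit and under every LA culture. The LA culture of 15.7 was also under that limit, and that of 18.3 lay at it, so these cannot be told from the CLA cultures. Counting the CLA cultures at the limit gives 1.40-fold, which rests on the LA culture of 55.8.

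The Tgfa level differed between the array sets. In the 5 dim arrays of set C it was 109 to 198, in set A 40.7 to 46.7, in set B 7.58 to 165, in set D 10.5 to 19.1 and in set E 5.87 to 15.9. The differences on the group means were 0.32 ± 0.78, -1.25 ± 0.70, -0.54 ± 0.60 and -0.78 ± 0.70. They became 0.01 ± 0.47, -0.61 ± 0.42, -0.54 ± 0.35 and -0.78 ± 0.41 with the array sets as a term. Another tested probe set of Tgfa, 1421943_at, pointed the other way at 24 h, with 22, 16.6 and 16.2 in CLA above 13.8, 13.7 and 6.55 in LA; the third, 1421942_s_at, was under the noise limit in all 25 arrays and was not tested.

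Counted by main probe sets, 2, 1, 2 and 2 of the 8 genes had all CLA arrays above all LA arrays at 4, 8, 12 and 24 h, beside 5.94%, 5.89%, 1.15% and 4.96% of all tested probe sets. At 4 h these were Ereg and Erbb3, at 8 h Ereg, and at 12 and 24 h Ereg and Hbegf. The opposite order was found for 0, 0, 0 and 1 gene, the last being Tgfa at 24 h, beside 5.81%, 5.99%, 1.0% and 5.62%.

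**Figure D3:**
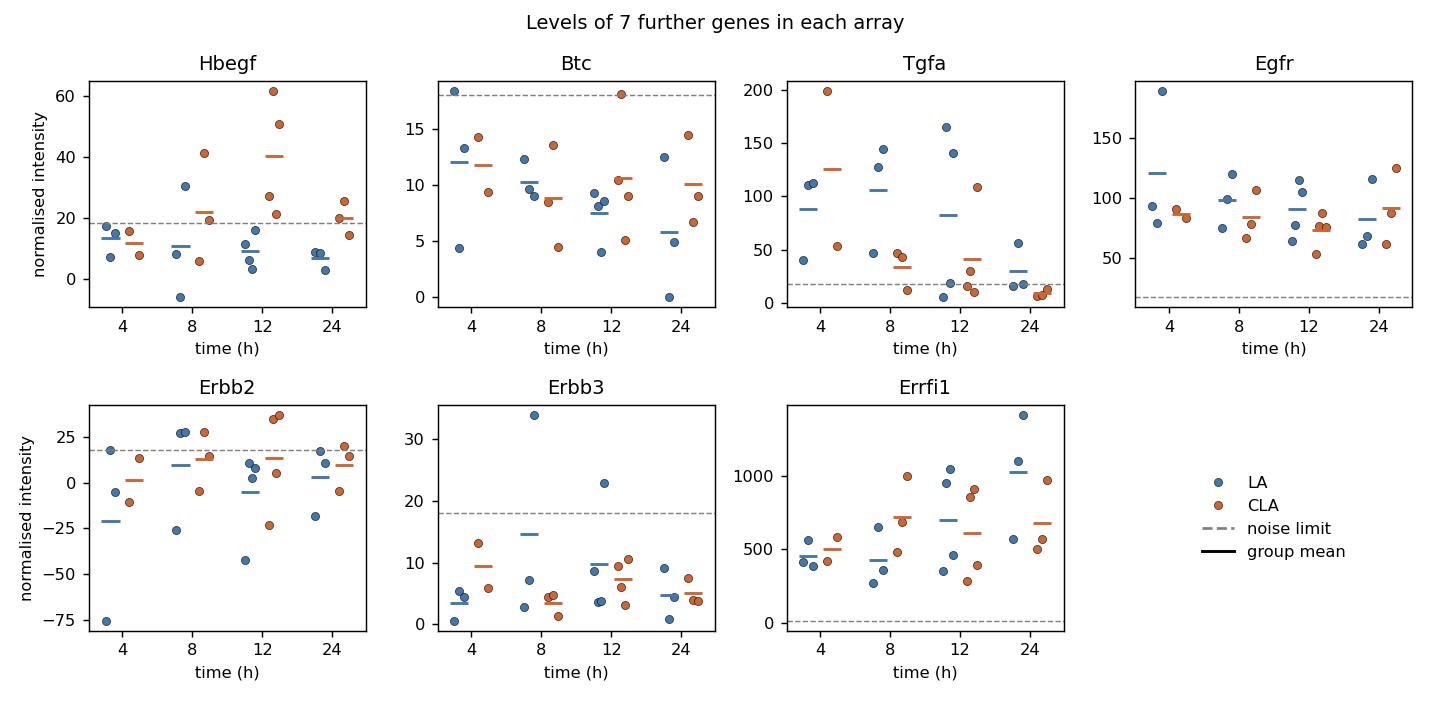
Normalised intensity (linear axes, which differ between panels) against time in hours in each LA (blue) and CLA (orange) culture for the main probe sets of Hbegf, Btc, Tgfa, Egfr, Erbb2, Erbb3 and Errfi1, with bars at group means and the noise limit of 18.1 as a dashed line. Egfr and Errfi1 lie above the limit in all 25 arrays, while Btc passes it in 2 and Erbb3 in 2.

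Egfr encodes the receptor that Ereg, Areg, Hbegf, Btc and Tgfa share. Its main probe set, 1460420_a_at, was above the noise limit in 25 of 25 arrays. At 8 h it had 75, 99.3 and 120.2 in LA and 66.8, 78.2 and 106.8 in CLA, and at 12 h 64.6, 78.0, 115 and 105 against 53.5, 77.1, 87.8 and 76.2. The remaining groups had 93.5, 79.2 and 189 in LA and 90.9 and 83.3 in CLA at 4 h, and 62.2, 68.8 and 116 against 61.5, 87.9 and 125 at 24 h. Treatments overlapped at all 4 times, and with the array sets as a term the difference was -0.45 ± 0.19, -0.22 ± 0.17, -0.24 ± 0.14 and 0.13 ± 0.16. While the Ereg level rose several-fold under CLA, this main Egfr probe set thus differed in that fit by under 0.5 log2 units at every time. Dimmer Egfr probe sets differed by more in that fit. At 4 h 1451530_at differed by -0.61 ± 0.23, with every CLA array under the noise limit and below every LA array. The LA arrays of 15.7 and 16.6 were also under that limit, and counting the CLA arrays at the limit gives 1.01-fold. The difference of 1454313_at was -0.68 ± 0.32 at 4 h and -0.57 ± 0.29 at 8 h, and that of 1457563_at was 0.53 ± 0.15 at 12 h. They passed the noise limit in 1 and 0 of 25 arrays. For the main probe set, the 4 h pair of set C differed by -0.94, and without the 6 dim arrays (set C and LA 4 h replicate 1) the 4 h value was 0.06. At 12 h the main probe set was lower under CLA in 4 of 4 sets, by 0.01 to 0.40 log2 units.

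The Egfr promoter window is shown because the receptor is the shared partner of the ligands and was measured in all arrays. It covers 250 bases before to 50 after the annotated start in RefSeq (GRCm38.p6), chr11:16751953-16752252, plus strand, with a match to the ETS core, CCGGAA, in capitals on the opposite strand.
Egfr: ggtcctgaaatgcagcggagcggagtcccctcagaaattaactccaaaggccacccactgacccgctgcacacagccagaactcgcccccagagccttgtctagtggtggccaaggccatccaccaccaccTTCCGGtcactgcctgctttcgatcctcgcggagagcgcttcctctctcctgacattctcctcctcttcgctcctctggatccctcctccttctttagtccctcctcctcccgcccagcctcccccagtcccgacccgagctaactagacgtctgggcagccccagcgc
The match lies at bases -119 to -114 from the start, and 14.9% of 32851 RefSeq promoter windows of this length hold at least 1. An Sp1 match, GGGCGG, lies at -9 to -4 on the opposite strand and is found in 35.66% of windows.

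The 7 Egfr probe sets disagreed in a way that followed the array sets. Probe set 1435888_at had 8.36 to 36.5 in the 5 dim arrays and 62.5 to 231 in the other 20, and 1424932_at had 5.47 to 32.2 and 54.3 to 202. The main probe set went the opposite way, with 76.2 to 189 in the dim arrays and 53.5 to 125 elsewhere, ranges that overlap. Over the 11 pairs within sets, CLA differed from LA by -0.26 to 0.36 log2 units for 1435888_at, -0.28 to 0.62 for 1424932_at and -0.94 to 0.29 for the main probe set, and by -0.78 to 0.97 for the 4 others. On the group means 1435888_at differed by 0.73 ± 0.60 at 8 h, and with the array sets as a term by -0.01 ± 0.21. The LA group at 8 h held a dim array and the CLA group did not. Of the other Egfr probe sets, 1451530_at, 1432647_at and 1454313_at were above the noise limit in 15, 9 and 1 of 25 arrays, and 1457563_at in 0. No gene coordinates for the probe sets were used, so which Egfr transcripts each one reads is not given here.

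Erbb2 encodes the family's co-receptor, which binds no known ligand itself. It was above the noise limit in 6 of 25 arrays and ran from -75.3 in LA 4 h replicate 1 to 37.0 in CLA 12 h replicate 4. Its groups overlapped at each time, and the differences on the group means were 0.08 ± 0.56, -0.16 ± 0.50, 0.56 ± 0.44 and 0.10 ± 0.50. Erbb3, a receptor of neuregulins with a weak kinase, passed the limit in 2 of 25 arrays, both LA and both dim, with 33.9 at 8 h and 22.9 at 12 h. Its other probe set was under the limit in all arrays and was not tested. At 4 h the CLA values of Erbb3, 13.2 and 5.85, lay above the LA values of 0.63, 5.34 and 4.47, but all 5 were under the noise limit.

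Errfi1 encodes an inhibitor, also called MIG6, that binds the EGF receptor's kinase domain and is itself induced by signalling from the receptor. It was the most steadily measured of these genes, above the noise limit in 25 of 25 arrays with both of its probe sets. The main probe set, 1416129_at, had 412, 565 and 386 in LA and 424 and 587 in CLA at 4 h, and 270.5, 653 and 362 in LA and 485, 685 and 997 in CLA at 8 h. At 12 h the LA values were 351, 947, 1044 and 461 and the CLA values 286, 857, 911 and 392. At 24 h they were 572, 1095 and 1409.7 in LA and 500.5, 571 and 967 in CLA. Groups overlapped at every time, and the spread within a group followed the array sets, with set D at 911 to 1409.7 and set E at 286 to 572.

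The Errfi1 difference was above 0 at 8 h and below 0 at 12 and 24 h. On the group means it was 0.15 ± 0.53 at 4 h, 0.77 ± 0.47 at 8 h, -0.21 ± 0.41 at 12 h and -0.55 ± 0.47 at 24 h. The fit with the array sets gave 0.02 ± 0.23, 0.41 ± 0.21, -0.21 ± 0.17 and -0.55 ± 0.20. Within the sets Errfi1 was lower under CLA in 4 of 4 pairs at 12 h, by 0.14 to 0.28 log2 units, and in 3 of 3 at 24 h, by 0.19 to 0.92. The other probe set, 1419816_s_at, was lower in the same 7 pairs, by 0.22 to 0.99. At 24 h Ereg was higher under CLA by 0.84 to 2.79 log2 units within the sets, and Errfi1 was not higher in any of the 3 pairs. Neither fit called Errfi1 at that time, and a link with Ereg was not tested.

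Errfi1 has 2 RefSeq start sites with a promoter window (GRCm38.p6). The window at chr4:150854820-150855119, plus strand, is printed because it holds a cyclic AMP response element, TGACGTCA, at bases -51 to -44 from the start, shown in capitals.
Errfi1: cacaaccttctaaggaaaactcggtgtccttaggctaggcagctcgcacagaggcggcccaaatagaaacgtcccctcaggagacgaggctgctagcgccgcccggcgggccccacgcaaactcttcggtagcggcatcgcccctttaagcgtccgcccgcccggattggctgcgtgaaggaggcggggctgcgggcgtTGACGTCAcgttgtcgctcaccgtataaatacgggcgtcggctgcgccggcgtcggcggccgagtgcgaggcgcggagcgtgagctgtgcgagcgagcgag
This element is found in 1.79% of the 32851 promoter windows, searched on both strands. The same window holds 3 Sp1 matches, GGGCGG, at -152 to -147, -97 to -92 and -93 to -88, all on the opposite strand, of which the last 2 overlap. A match describes the letters only and says nothing of binding in these cells. Windows were matched for 6 of the 9 genes, Errfi1, Areg, Btc, Tgfa, Egfr and Erbb2; Ereg, Hbegf and Erbb3 are named only.

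Changes over time within a treatment were tested across all probe sets with limma's moderated F-test over the 3 differences from 4 h. Within LA, 0 of the 8 genes passed on the group means or with the array sets as a term, where 0% of probe sets passed in each, and 1014 and 3414 of 32488 had an unadjusted p under 0.05. Errfi1 was the nearest, 0.79 ± 0.23 log2 units higher at 24 h than at 4 h in LA with the array sets as a term, an unadjusted p of 0.0036 and an adjusted p of 0.35. Its other probe set was 1.34 ± 0.27 higher, with an adjusted p of 0.274. Within CLA, 0 of the 8 passed in either fit, where 0% and 0.169% of probe sets passed. Ereg under CLA stood 2.88, 2.27 and 0.92 log2 units above its 4 h level at 8, 12 and 24 h with the array sets as a term. A test of whether the difference between treatments itself changed with time passed for 0 of the 8 in either fit, beside 0% and 0.00308% of probe sets, so the order of the 4 Ereg differences is a description.

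Genes known to act around the receptor were taken from lists of pathway roles, written with earlier results of these data known. Of 16 other EGF family ligands, ERBB4 and sheddases, 14 were tested, and 0 passed on the group means at any time. With the array sets as a term, Adam17, the protease that frees Hbegf, Areg, Ereg and Tgfa, rose by 0.93 ± 0.19 at 8 h (adjusted p = 0.019). Nrg4, a neuregulin made by fat cells that binds ERBB4, fell by 1.18 ± 0.20 at 12 h (adjusted p = 0.0032) and by 1.71 ± 0.23 at 24 h (adjusted p = 3.2e-04). Their values on the group means were 1.23 ± 0.52 for Adam17 at 8 h, -1.18 ± 0.35 for Nrg4 at 12 h and -1.71 ± 0.40 at 24 h. The list's median difference with the array sets as a term was -0.05, 0.10, 0.01 and 0.03 from 4 to 24 h, beside medians of all tested probe sets of 0.01, -0.01, -0.00 and 0.02. On the group means it was -0.08 at 4 h and 0.35 at 8 h, and the same at 12 and 24 h.

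Among 26 adaptors and kinases below the receptor, 21 were tested and 0 passed at any time in either fit. The lowest unadjusted p values on the group means belonged to Nras and Gab2, a Ras protein and an adaptor, with 0.015 and 0.050. Medians with the array sets as a term were 0.02, 0.10, 0.05 and -0.01.

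All 22 feedback inhibitors of the receptor, Ras and ERK were tested. On the group means Dusp5, a nuclear ERK phosphatase, was the 1 that passed, higher by 2.95 ± 0.43 at 8 h (adjusted p = 0.014) and by 2.44 ± 0.38 at 12 h (adjusted p = 0.014). This call held in 2 of 6 fits at 8 h and 3 of 8 at 12 h when an array of that time was left out, with differences of 2.14 to 3.23. In the fit with the array sets 4 rose at 8 h, namely Dusp5 by 3.12 ± 0.42, Dusp6 (a cytoplasmic ERK phosphatase) by 1.44 ± 0.28, Socs3 (an inhibitor of cytokine receptors) by 1.43 ± 0.24 and Spred2 (a Ras pathway inhibitor) by 0.82 ± 0.15. At 12 h Dusp5, Dusp6, Spred2 and Spry2 rose, the last by 0.76 ± 0.17, and Lrig1, which promotes loss of the EGF receptor, fell by 0.72 ± 0.17. At 24 h Socs3 and Spry2 rose and 1 gene fell, Dusp4 by 1.0 ± 0.24, named after its values were seen. In that fit 0, 4, 4 and 2 of the 22 thus rose from 4 to 24 h, where 6, 287, 484 and 191 of the 32488 probe sets did. Those that fell were 0, 0, 1 and 1 of the 22, beside 0, 89, 490 and 717 of all probe sets. The list's median was 0.12, 0.25, 0.03 and 0.06. Most of the 22 did not pass, and neither did Errfi1, which belongs to the same class.

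Of 20 ERK-responsive transcripts 18 were tested. Ier3, an early growth factor response gene, was the 1 that passed on the group means, higher by 2.65 ± 0.45 at 8 h (adjusted p = 0.037) and by 2.68 ± 0.39 at 12 h (adjusted p = 0.0093). Its call held in 1 of 6 such fits at 8 h and 5 of 8 at 12 h, with differences of 2.22 to 3.0. With the array sets as a term 1, 12, 11 and 3 rose and 0 fell, where 6, 287, 484 and 191 of the 32488 probe sets rose and 0, 89, 490 and 717 fell, and the list's medians were 0.99, 1.49, 0.90 and 0.53. At 8 h Egr1, an early transcription factor, was higher by 2.93 ± 0.40, Dusp1 (a phosphatase of stress kinases) by 2.36 ± 0.37, Ptgs2 (cyclooxygenase 2) by 2.25 ± 0.34, Phlda1 by 1.85 ± 0.21 and the ETS factor Etv5 by 1.17 ± 0.16. At 4 h, when the Ereg difference was 0.78 ± 0.61, Etv5 was the gene called, at 1.07 ± 0.18 (adjusted p = 0.044). That call rests on 3 LA and 2 CLA arrays, of which LA replicates 1 and 3 and CLA replicate 1 were dim. On the group means Etv5 was not called at 4 h, with differences of 0.81 to 1.87 when an array of that time was left out. Egr1 was 2.42 ± 0.45 higher at that time, with an adjusted p of 0.10. The medians of the adipocyte marker sums given above were lower, and those of the preadipocyte markers higher, in CLA cultures at the same times with overlapping ranges, and their part in these differences was not tested.

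**Figure D4:**
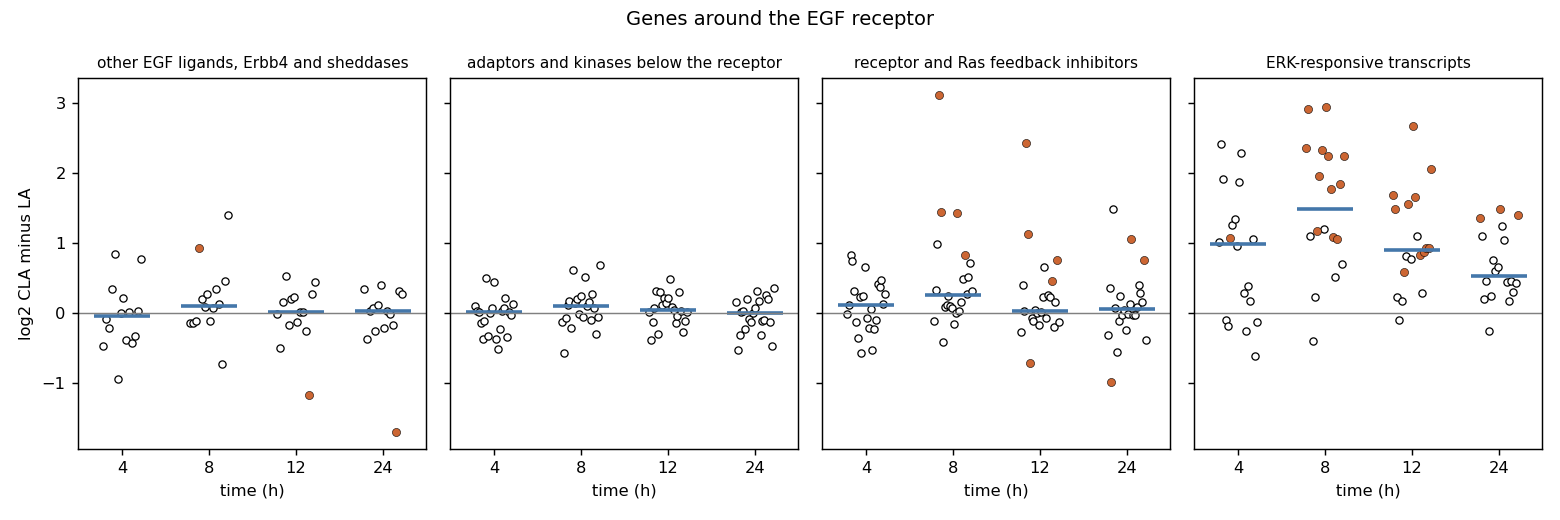
Difference between CLA and LA in log2 units with the array sets as a term, against time in hours, for each tested gene of 4 lists around the receptor; filled orange points have an adjusted p under 0.05 and blue bars mark list medians. The ERK-responsive transcripts have medians of 0.99, 1.49, 0.90 and 0.53 and 12 called genes at 8 h, and the adaptors and kinases have 0.

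Profiles like that of Ereg were looked for by Pearson correlation of log2 values over the 25 arrays, among 14436 genes with a tested main probe set. The arrays share treatment, time and array set, so the coefficients are descriptions. The 5 most alike were Dusp5 at r = 0.95, Clcf1 (cardiotrophin-like cytokine factor 1) at 0.95, Ifrd1 (an interferon-related regulator) at 0.92, Ptgs2 at 0.90 and Tubb2b (a beta tubulin) at 0.87. Clcf1 ran from 3.10 to 53.2 in LA arrays and from 49.0 to 500.5 in CLA arrays, and Ifrd1 from 284 to 427 and from 476 to 2458. Among the receptor's ligands, the Hbegf probe sets had r of 0.70 and 0.72 with Ereg and the main Tgfa probe set -0.42. The main Egfr probe set had -0.28, that of Erbb2 0.28 and that of Errfi1 0.07.

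Ereg lies in a row of related genes on chromosome 5, where RefSeq lists Cxcl1, Cxcl2, Mthfd2l, Epgn, Ereg, Areg, Btc and Parm1 in that order. Whether its ligand neighbours share its profile could not be seen, because those measured were mostly under the noise limit. Epgn, which encodes the ligand epigen, passed that limit in 2 of 25 arrays with differences of -0.47 to 0.07. Btc, described above, also passed it in 2. Areg was not analysed here. Cxcl1, a neutrophil-attracting chemokine some genes away, had differences of 0.58, 2.74 ± 0.87, 3.04 ± 0.76 and 1.79 ± 0.87 at the 4 times on the group means.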

How the data were processed

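Per the labels' protocols, Trizol was used to extract RNA of 3T3-L1 adipocytes, and biotinylated cRNA was put on one-colour Affymetrix arrays. The deposited value table gives a linear intensity for 45101 probe sets on 25 arrays; how the authors summarised and scaled it is not given in the sources used here. In addition, the authors' deposited tables for each time give a ratio, an absolute fold change, the log10 ratio with its error and a p-value with the arrays of a group combined, per the file headers, and only the ratio is printed. The error of the log10 ratio, a score per probe set, is as the authors deposited it; 8 columns of combined intensities in these tables were not used. Probe sets were named through the platform annotation (34958 with 1 symbol, 932 with several, 9211 with none); only those with 1 symbol were given a gene.

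Intensities were quantile normalised, floored at 0 and analysed as log2(value + 16) in limma 3.58.1 (R 4.3.3). Probe sets above the array median in at least 2 arrays were tested (32488), with Benjamini-Hochberg adjustment over all of them at 0.05. The main probe set of a gene has the highest mean. The model had 8 group means; an alternative added 5 array sets from Ward clustering of the arrays. Other alternatives were offsets of 0.984 and 57.7, no filter, median scaling, the replicate number as a block and leaving out arrays. Ratios given as "at least" set the group that lies wholly under the noise limit at that limit and take the other group's arrays at their own values. The fit was tested on simulated data.

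The members, the gene lists and the markers were chosen with earlier results of these data known. The 9 members, the up to 6 list genes of smallest p past the threshold (otherwise the 2 of smallest p), the 5 genes most like Ereg and its neighbours are named. The number of arrays limits the precision; where nothing says that replicates came from separate cultures beyond the label "biological", p-values measure the spread between these arrays.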

Additional observations from a re-analysis of the deposited data

Results flagged for a closer look

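Within groups of 4 arrays, 3 of the 40 examined held 1 array far from the other 3, near the share of about 1 in 20 that chance gives. Only the 12 h groups held 4 arrays, so no other time could be flagged. All 3 are in LA. For Ereg the array was LA 12 h replicate 1, at 47.3, where the remaining LA arrays had 8.79 to 11.7, and without it the 12 h difference was 3.62 in place of 3.31. Erbb2 was -42.4 in the same array, one of those with a high actin ratio, with 2.62 to 11 in the others. Btc probe set 1421161_at was 10.2 in LA 12 h replicate 4, a dim array, against 3.21 to 4.13, all under the noise limit. Egfr probe set 1457563_at lay higher in every CLA than every LA array at 12 h, by 0.53 log2 units, and lower in every CLA array at 24 h, by 0.23 (a difference of -0.23). The 12 and 24 h differences were not tested against each other alone; a test over all 4 times did not pass for it (limma adjusted p = 0.514 with the array sets as a term and 1.0 on the group means), and this probe set never passed the noise limit.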

How the results depend on the processing

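Of the 8 genes, the number called at 8 h was 1 on the group means and 0 with an offset of 0.984, an offset of 57.7, no filter, or without the 5 dim arrays. At 12 h it went from 1 to 0 with the offset of 57.7 and without the dim arrays, and to 2 with the array sets as a term. At 24 h it went from 0 to 1 with the array sets as a term, with all arrays and without the dim ones. Leaving out single arrays gave 0 to 1 at 8 and 12 h and 0 for each other count of these genes. Of the list genes 2 were called on the group means, 0 with the offset of 0.984, 1 with that of 57.7, 7 with the replicate block, 22 with the array sets, 0 without the dim arrays, 19 with the array sets and without the dim arrays, and 1 to 3 when single arrays were left out. Among the 8 genes and the list genes, no difference called on the group means changed sign in another setting. Differences that were not called did change sign. Without the 5 dim arrays, Tgfa at 4 h went from 0.32 to -0.29 and Erbb2 at 8 h from -0.16 to 0.09. The offset set the size of the Ereg difference, which was 4.30 and 4.23 at 8 and 12 h with 0.984 and 2.64 and 2.31 with 57.7. Leaving out LA 4 h replicate 1 beside the 5 dim arrays gave 0 of the 8 genes at 8 and 12 h and 0 list genes on the group means, and with the array sets 1, 1 and 0 of the 8 genes at 8, 12 and 24 h and 19 list genes. Counts of all probe sets called at 4, 8, 12 and 24 h were 0, 8, 5 and 0 on the group means, 6, 376, 974 and 908 with the array sets, 2, 352, 315 and 1035 with the array sets and without the dim arrays, 0, 78, 68 and 52 with the replicate block, 4, 0, 1 and 0 with the offset of 0.984, 0, 5, 3 and 0 with that of 57.7, 2, 3, 4 and 0 without the filter, 0, 3, 1 and 1 without the 5 dim arrays, 0, 2, 1 and 1 without the 6, and 0, 354, 282 and 1056 without the 6 and with the array sets. The cause of these shifts was not tested.

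Same-numbered LA and CLA arrays deviated together (r over 0.1) in 11 of 12 pairs and not at 4 h replicate 1 (r = -0.37). The labels state no pairing, and the fit on the group means leaves out the one seen in most of these pairs. With the replicate block the 8 genes gave 0, 1, 1 and 0 calls, as without it. Over all probe sets the block gave 0, 78, 68 and 52 calls, against 0, 8, 5 and 0 without it. For Ereg at 24 h the limma adjusted p was 0.16 with the block and 0.83 without. With the array sets as a term, Ereg was called at 8 and 12 h in 25 of 25 leave-one-out fits and at 24 h in 20, lost without any LA array of that time or without CLA replicate 1 or 2. Hbegf at 12 h was called in 19 of 25.

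Signal over background limits Btc, Erbb2, Erbb3, Epgn and the LA levels of Ereg and Hbegf, for which a change in either direction under the noise limit cannot be seen.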
